A study of Mus musculus with 6 samples.

Results

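The genes described here are 36 interferon-stimulated genes outside the p200 family, a set named by symbol and chosen for known function rather than by a measured value. The choice was made with earlier results of these data known. A probe set belonged to the group when the platform annotation gave it the symbol, or a current synonym, of 1 of the genes. By that rule 34 genes were measured by 55 probe sets, of 18194 genes measured by a probe set of their own. Ifi44 had no probe set listed under its name, and Isg15 was listed only on a probe set that also carries a second symbol, so neither gene is given a value. A probe set shared by Trim30a and Trim30d was left out for the same reason.

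Bone marrow cells of adult female mice of 6 to 16 weeks were depleted of cells bearing mature blood lineage markers, which enriches haematopoietic stem and progenitor cells, and total RNA was put on 1 array per sample. The groups were 3 samples of the strain C57B/L6 and 3 of the strain B.D(Chr5), whose name points to chromosome 5 and whose genetic background is labelled B.D, and no treatment or other allele was labelled in either. The labels call the samples biological replicates without saying whether 1 mouse or several gave each sample, and the spread behind every p-value, which may be technical, is that between these samples. Each array had been scaled to a trimmed mean of 500, and the number of arrays limits the precision. The background of an array was set at the 95th percentile of its 27 bacterial controls. It lay between 21.8 and 38.0, and 63.3% to 71.2% of all probe sets exceeded it. Among 8 measured stem and progenitor markers, which include Kit, Cd34 and Flt3, 8 lay above background on all 6 arrays. Of 8 T and NK cell markers 7 did so as well, and Cd4 was above background on none.

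Type I interferons bind the receptor pair IFNAR1 and IFNAR2, and the kinases JAK1 and TYK2 then set off signalling. STAT2 and IRF9 are parts of the factor that binds the interferon-stimulated response element in the promoters of the target genes, whereas interferon gamma acts mainly through the gamma-activated site. The targets include RNA sensors, the oligoadenylate synthetases that switch on RNase L, proteins that block viral entry or replication, and the immunoproteasome. Stem and progenitor cells are known to keep part of this program active without infection, and acute interferon exposure is known to push dormant stem cells into cycle.

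The promoters of several members carry the response element, and those of the genes to which the measurements below return are shown. RefSeq promoter windows of GRCm38.p6, from 250 bases before to 50 bases after an annotated start, were held for 28 of the 36 genes. Both strands were searched for the response element core, which is GAAA, any 2 bases and GAAA again. It was found for 15 of 28 members (53.6%), against 1079 of 27025 genes in the table (3.99%). The gamma-activated site, which is TTC, any 3 bases and GAA, was found for 9 of 28 members (32.1%) and for 9.55% of all genes. The motifs overlapped each other in 2 windows of members, and 8 members held neither. A match describes letters in this window and does not show a bound site. In the following windows, given 5′ to 3′ along the gene's strand, capitals mark the response element core in all but Irf1, where they mark the gamma-activated site. Oas1a (chr5:120907476-120907775, minus strand) holds overlapping matches that begin at -20 and -14 from the start, and Oas3 (chr5:120777610-120777909, minus strand) holds 1 at -75. Ifit3 (chr19:34583279-34583578, plus strand) holds matches at -156 and -122, and Gbp2 (chr3:142620413-142620712, plus strand) holds 1 at -59. Eif2ak2 (chr17:78882523-78882822, minus strand) holds 1 at 18, inside the transcript, and Irf1 (chr11:53769764-53770063, plus strand) holds a gamma-activated site at -90 in the first of its windows.
Oas1a: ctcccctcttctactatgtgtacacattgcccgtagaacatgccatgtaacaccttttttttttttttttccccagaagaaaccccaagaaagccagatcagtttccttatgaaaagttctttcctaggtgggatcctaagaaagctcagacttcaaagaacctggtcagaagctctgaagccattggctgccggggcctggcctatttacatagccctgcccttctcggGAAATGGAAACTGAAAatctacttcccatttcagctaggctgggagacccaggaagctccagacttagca
Oas3: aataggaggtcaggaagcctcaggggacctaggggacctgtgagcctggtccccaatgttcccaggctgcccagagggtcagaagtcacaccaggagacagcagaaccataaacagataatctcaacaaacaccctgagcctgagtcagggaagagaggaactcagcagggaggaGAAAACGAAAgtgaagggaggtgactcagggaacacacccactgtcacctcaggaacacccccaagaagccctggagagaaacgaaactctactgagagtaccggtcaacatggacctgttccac
Ifit3: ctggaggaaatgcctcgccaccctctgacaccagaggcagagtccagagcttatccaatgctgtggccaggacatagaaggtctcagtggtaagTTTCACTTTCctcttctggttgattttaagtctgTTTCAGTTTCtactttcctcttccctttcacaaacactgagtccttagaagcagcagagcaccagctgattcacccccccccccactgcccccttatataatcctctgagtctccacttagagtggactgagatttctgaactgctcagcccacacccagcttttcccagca
Gbp2: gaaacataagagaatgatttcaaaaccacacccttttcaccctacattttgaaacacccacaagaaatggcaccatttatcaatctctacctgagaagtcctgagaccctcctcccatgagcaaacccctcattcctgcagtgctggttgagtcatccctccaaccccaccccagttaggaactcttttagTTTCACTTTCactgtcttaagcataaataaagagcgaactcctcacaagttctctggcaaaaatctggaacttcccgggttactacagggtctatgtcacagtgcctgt
Eif2ak2: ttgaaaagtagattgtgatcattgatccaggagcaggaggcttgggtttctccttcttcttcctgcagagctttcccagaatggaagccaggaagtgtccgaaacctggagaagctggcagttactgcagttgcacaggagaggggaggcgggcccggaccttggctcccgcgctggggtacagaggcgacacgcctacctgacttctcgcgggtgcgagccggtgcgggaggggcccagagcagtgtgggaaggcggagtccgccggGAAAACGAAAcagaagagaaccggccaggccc
Irf1: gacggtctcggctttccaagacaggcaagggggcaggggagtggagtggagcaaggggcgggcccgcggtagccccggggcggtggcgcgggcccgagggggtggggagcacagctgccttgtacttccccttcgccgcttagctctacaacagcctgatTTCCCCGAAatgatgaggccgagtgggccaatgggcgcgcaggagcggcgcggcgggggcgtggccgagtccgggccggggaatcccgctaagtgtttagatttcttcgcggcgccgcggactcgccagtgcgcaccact

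**Figure D1:**
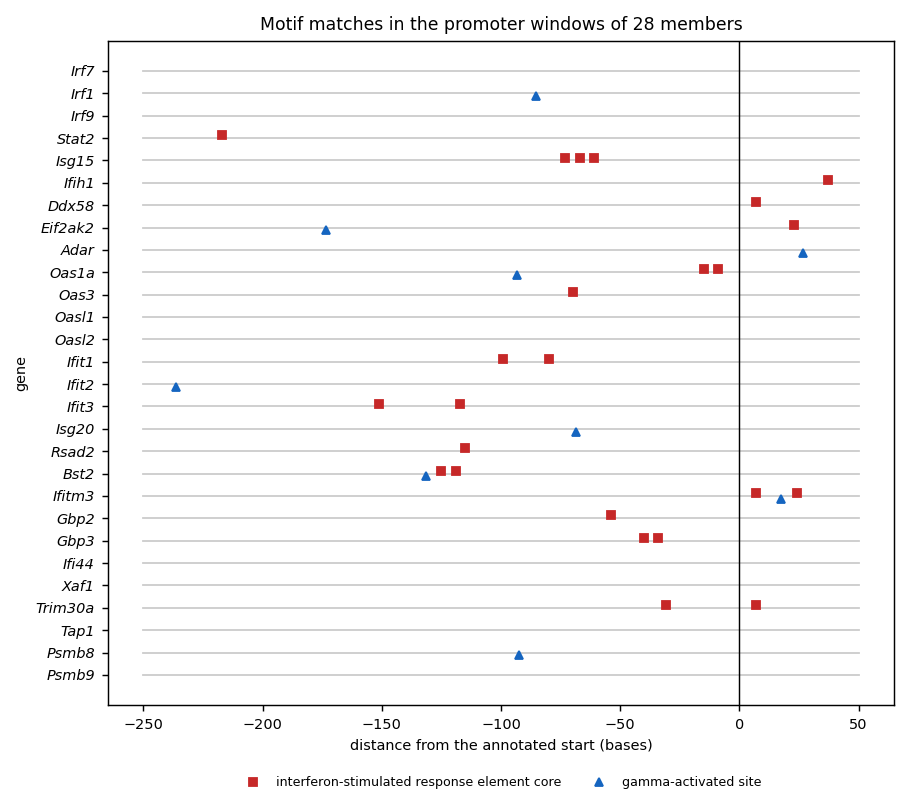
Matches to the response element core (red squares) and to the gamma-activated site (blue triangles) in the promoter windows of 28 members, with distance in bases from the annotated start on the x axis and genes grouped by role on the y axis; several windows of 1 gene share a row. The 15 genes with a response element core include Oas1a and Oas3, and the windows of Oasl1 and Oasl2 hold neither motif.

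By role, the response element was found for Ifit1, Ifit3, Rsad2, Bst2 and Ifitm3 among the antiviral effectors, and for Ifih1, Ddx58 and Eif2ak2 among the genes of RNA sensing. Tap1, Psmb9, Irf7 and Irf9 held neither motif. The windows of Tap1 and Psmb9, genes of antigen processing transcribed away from each other, share 275 bases. Among the 5 Oas genes Oas1a and Oas3 held the response element, Oasl1 and Oasl2 did not, and Oas2 had no window in the table.

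Most of these genes were expressed above background in lineage-depleted marrow of both strains. Of the 34 measured genes, 33 had a probe set above the background of its array on all 6 arrays, as did 11498 of 18194 genes in all (63.2%). The remaining gene was Mx2, of the dynamin-like antiviral GTPases, with signals of 9.96, 10.1 and 36.1 in C57B/L6 and 52.2, 8.78 and 33.9 in B.D(Chr5), of which 2 were above background. Ifitm3, which blocks the fusion of enveloped viruses, ranged from 5703 to 8555 over the arrays. The immunoproteasome subunit genes Psmb8 and Psmb9 ranged from 4857 to 6374 and from 3715 to 4644. Signals of different genes are not compared, because probe sets differ in brightness. With 9 probe sets too dim to be tested, 46 probe sets of 33 genes entered the comparison of the strains. Only the brighter 50% of probe sets, ranked by mean log2 signal over both strains, were tested.

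**Figure D2:**
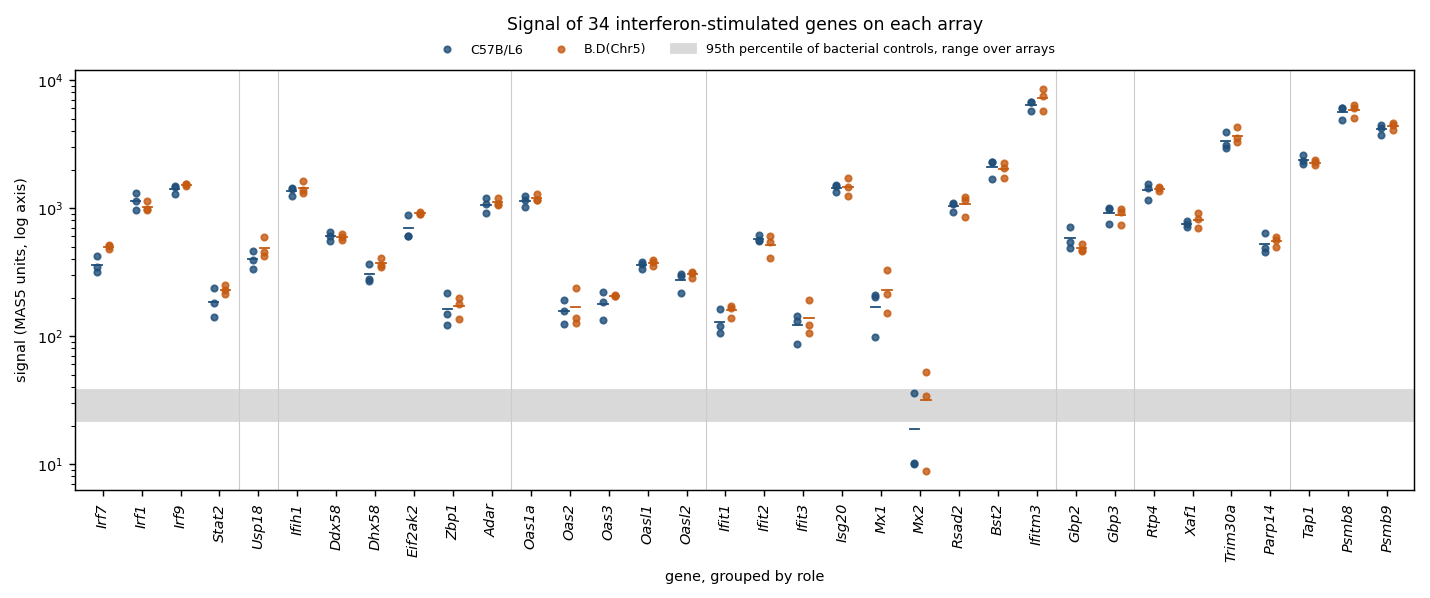
Signal of the brightest probe set of each of 34 members on each array, on a log axis, with genes grouped by role; points are arrays, short lines are strain means of 3 arrays, and the grey band is the range of the background over the arrays. Mx2 is the gene whose points lie in or near the band, and the points of the strains overlap for all genes drawn except Irf7 and Eif2ak2.

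The first question was whether the strains differed in these genes. No member passed the threshold: 0 of 46 probe sets had a limma p adjusted over all 22518 tested probe sets below 0.05, against 0.182% of all probe sets. By gene this was 0 of 33 members, against 0.223% of all tested genes. At an unadjusted p under 0.05 there were 2 of 46 probe sets, against 4.75% of all, and 2 of 33 genes by their brightest probe set, against 5.19%. The strains did not overlap for 2 of 33 genes, against 9.94% of all tested genes. The log2 changes of the brightest probe sets are B.D(Chr5) minus C57B/L6 on the log2(signal + 16) scale. They ran from -0.25 for Gbp2 to 0.45 for Irf7, with a median of 0.073 beside -0.0085 for all 10739 tested genes. They were positive for 26 of 33 members and for 46.6% of all tested genes. Leaving out single arrays moved this median between 0.038 (B.D(Chr5) replicate 3) and 0.14 (C57B/L6 replicate 3), and with C57B/L6 replicate 1 left out 19 of 33 members were positive. Many members varied together over the arrays, as described below, so their signs are not independent of each other. In bulk RNA fewer cells of a type and less RNA per cell cannot be told apart. The absence of a call does not show equal expression: the 95% interval of the change lay within 1 log2 unit either way for 32 of 33 members, and within 0.5 for 19.

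**Figure D3:**
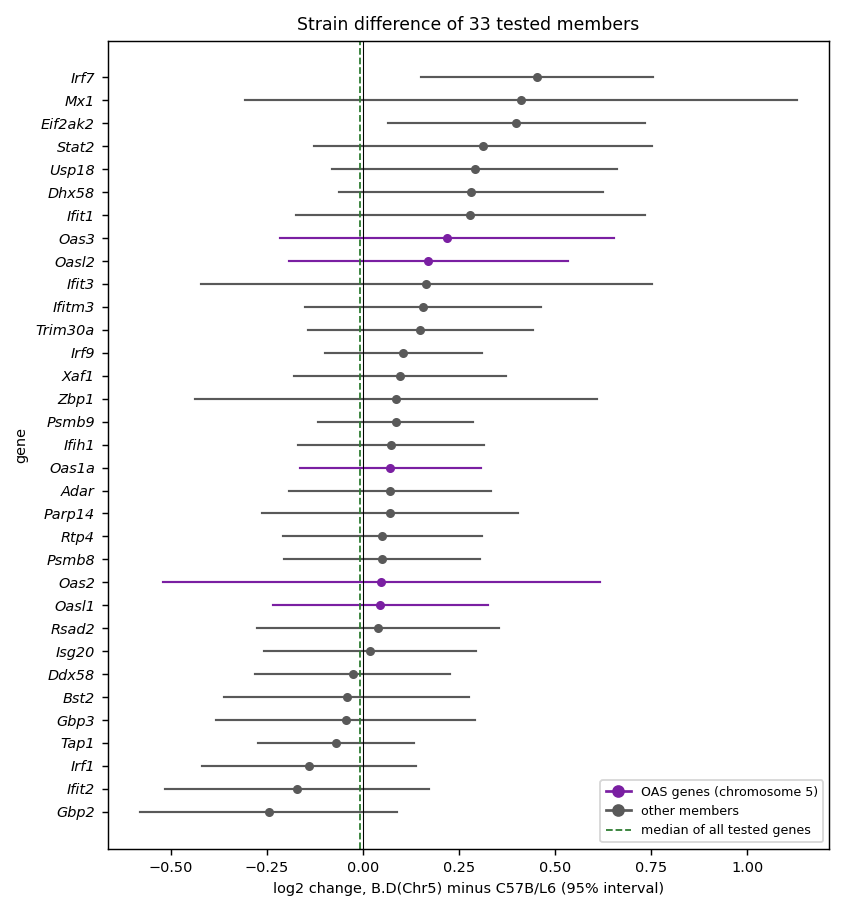
Log2 change between the strains for the brightest probe set of 33 tested members, with unadjusted 95% intervals from limma (3 arrays per strain); Oas genes are purple, and the dashed line is the median of all tested genes at -0.0085. Intervals of Irf7 and Eif2ak2 lie above 0, and the Oas genes lie between 0.045 and 0.22, within the range of the other members.

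The transcription factors of the pathway held the member with the smallest p. Irf7, which encodes the factor that amplifies type I interferon production, had signals of 346, 419 and 319 in C57B/L6 and 502, 510.5 and 478 in B.D(Chr5). All 3 arrays of B.D(Chr5) lay above those of C57B/L6. The means were 361 ± 51.8 and 497 ± 16.6 (SD, n = 3 each), and the log2 change of 0.45 ± 0.13 (SE) had an unadjusted limma p of 0.00778 and an adjusted p of 0.702. Stat2, a part of the factor that binds the response element, read 141, 236 and 181 in C57B/L6 and 249, 214 and 228 in B.D(Chr5), and the groups overlapped. Its log2 change was 0.31 ± 0.20 (SE), and that of its dimmer tested probe set was 0.044. Irf9, the partner gene of Stat2, read 1283, 1478 and 1469 against 1475, 1538 and 1531, with a log2 change of 0.10. Irf1, a factor induced mainly by interferon gamma, had a change of the other sign. It read 974, 1137 and 1301 in C57B/L6 and 975, 973 and 1131 in B.D(Chr5), a log2 change of -0.14 ± 0.12. (SE)

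Among the genes of RNA sensing, Eif2ak2 had the smallest p. It encodes PKR, the kinase that stops translation on binding double-stranded RNA. Its brightest probe set read 886, 603 and 606 in C57B/L6 and 901, 898 and 936 in B.D(Chr5). The strains did not overlap, but C57B/L6 replicate 1 lay close to the B.D(Chr5) arrays and far from the other C57B/L6 arrays. The log2 change was 0.40 ± 0.15 (SE). Its unadjusted limma p was 0.0243 and its adjusted limma p was 0.929. Its other tested probe sets had changes of 0.14 and 0.11. Dhx58, encoding the RNA helicase LGP2, read 280, 270.1 and 363 in C57B/L6 and 360.4, 346 and 406 in B.D(Chr5), with a log2 change of 0.28. A dimmer tested probe set of Dhx58 had a change of -0.25, so the probe sets disagreed in sign. The sensor genes Ifih1, for MDA5, and Ddx58, for RIG-I, had changes of 0.073 and -0.026. Zbp1, a sensor of Z-form nucleic acids, had 0.087, and the RNA-editing gene Adar had 0.071. Other tested probe sets of Adar had 0.12 and 0.455 ± 0.27 (SE). The latter read 287, 309 and 629 in B.D(Chr5), so its change leaned on replicate 3.

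Usp18, whose product removes ISG15 from proteins and restrains receptor signalling, read 335, 396 and 459 in C57B/L6 and 457, 423 and 589 in B.D(Chr5). The groups overlapped, and the log2 change was 0.29 ± 0.17. (SE) Among the effectors Ifit1, which binds viral RNA lacking cap methylation, read 106, 121 and 162 in C57B/L6 and 139, 172 and 165 in B.D(Chr5), a log2 change of 0.28 ± 0.20. (SE) Mx1 had the widest interval of the 33 genes. It read 98.4, 211 and 201 in C57B/L6 and 214, 152 and 327 in B.D(Chr5), a log2 change of 0.41 with a 95% interval from -0.31 to 1.13. With C57B/L6 replicate 1 omitted the change was 0.093. Omitting B.D(Chr5) replicate 3 gave 0.143, and omitting replicate 2 of that strain gave 0.658. Ifitm3 read 5758, 6727 and 6796 against 7458, 5703 and 8555, a log2 change of 0.16, which ran from 0.025 without B.D(Chr5) replicate 3 to 0.317 without B.D(Chr5) replicate 2. Ifit2, Ifit3, Rsad2, Isg20 and Bst2 had log2 changes from -0.17 to 0.17.

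The guanylate-binding protein genes among the members, Gbp2 and Gbp3, had negative changes. The products of this family attack the vacuoles of intracellular pathogens. Gbp2 read 492, 548 and 712 in C57B/L6 and 463, 471 and 521 in B.D(Chr5), with overlap, and its log2 change was -0.25 ± 0.15. (SE) Its second probe set had -0.14, and Gbp3 had -0.044 ± 0.15 (SE). Both genes lie on chromosome 3. Outside the member list the family went both ways. Gbp7, also on chromosome 3, had 0.13 ± 0.092 (SE), and Gbp6, on chromosome 5, had -0.20 ± 0.18 (SE). Trim30a, which encodes a TRIM family protein with close relatives, read 2948, 3097 and 3930 in C57B/L6 and 3516, 3264 and 4275 in B.D(Chr5), a log2 change of 0.15. Rtp4, Xaf1 and Parp14 had changes of 0.051, 0.097 and 0.070. Tap1, which carries peptides into the endoplasmic reticulum, had -0.069, and Psmb8 and Psmb9 had 0.050 and 0.086. Of 13 further tested probe sets of these genes, 11 had the sign of the brightest probe set of their gene. The exceptions were those of Dhx58, given above, and of Psmb8, at -0.22. Several other values also rested on single arrays. Leaving out C57B/L6 replicate 1 took Stat2 to 0.143, Ifit1 to 0.161 and Irf9 to 0.039. Leaving out C57B/L6 replicate 3 took Gbp2 to -0.097 and Irf1 to -0.039. With B.D(Chr5) replicate 3 omitted, Usp18 came to 0.155 and Trim30a to 0.038. Irf7, Eif2ak2 and Dhx58 moved by less than 1.5 times in all 6 such omissions.

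The second question was whether the Oas genes, which lie on the chromosome that B.D(Chr5) is named for, differed from the rest. Their medians were close: the median log2 change was 0.071 for the 5 Oas genes and 0.080 for the 28 others, and 0 of 5 and 0 of 28 passed the threshold. The sign of this difference of -0.0083 rested on single arrays: it was positive in 5 of 6 cases with an array left out, and the highest values were 0.064 with B.D(Chr5) replicate 2 omitted and 0.068 with replicate 3 of that strain omitted. Oas1a, an active synthetase gene, read 1023, 1160 and 1250 in C57B/L6 and 1287, 1162 and 1153 in B.D(Chr5). The groups overlapped, and the log2 change was 0.071 ± 0.10. (SE) Oas2 read 157, 125 and 192 against 127, 137 and 237, with a log2 change of 0.048 ± 0.25. (SE) Oas3, encoding the largest of these enzymes, read 183, 133 and 220 in C57B/L6 and 207, 207 and 206 in B.D(Chr5), with a log2 change of 0.22 ± 0.19. (SE) Here the B.D(Chr5) arrays lay close together and inside the range of C57B/L6, and leaving out C57B/L6 replicate 2 gave 0.040 and C57B/L6 replicate 3 gave 0.368. Oasl1 and Oasl2 encode proteins that carry ubiquitin-like domains. Oasl1 read 368, 379 and 336 against 352, 376 and 390, a log2 change of 0.045. Oasl2 read 217, 294 and 306 against 312, 286 and 318, a log2 change of 0.17, which was 0.024 when C57B/L6 replicate 1 was left out and 0.257 when C57B/L6 replicate 3 was. All 5 changes were positive with all arrays, but 3 of them turned negative when 1 array was left out. Oas1a had -0.0062 without C57B/L6 replicate 1, and Oasl1 had -0.0034 without C57B/L6 replicate 3. Oas2 had -0.095 when C57B/L6 replicate 2 was left out and -0.21 when B.D(Chr5) replicate 3 was. The 5 genes are similar in sequence and adjoin each other in groups, so they are not independent of each other.

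The neighbourhood of the Oas genes held no called gene either. In the order of tested genes along chromosome 5, Oasl2 and Oasl1 were numbers 394 and 395 of 699, and Oas2, Oas3 and Oas1a were numbers 435, 436 and 438. The nearest called gene was Lcorl, at number 172. Among the 10 tested genes on each side of an Oas gene, 0 of 20 were called in each of the 5 cases, against 0.223% of all tested genes. At that share a window of this size would rarely hold a call. The windows of adjacent Oas genes also overlap, so the 5 cases are not independent. The median log2 change in a window lay between -0.0185 and 0.057. The 1 neighbour with an unadjusted limma p under 0.05, which 5.19% of all tested genes had, was Trafd1, itself an interferon-stimulated gene. Trafd1 read 1023, 913 and 799 in C57B/L6 and 690.5, 733 and 744 in B.D(Chr5). All 3 arrays of B.D(Chr5) were lower, with a log2 change of -0.32 ± 0.11 (SE) and an adjusted limma p of 0.905. Over all 699 tested chromosome 5 genes the median was -0.0031, and 4 were called. These were Dnajc2, AI506816, Pus7 and Lcorl, at numbers 35, 41, 42 and 172, all before the Oas genes in this order. Whether the strains differ in genotype at the Oas genes was not tested. Of the other Oas genes with a probe set, Oas1b had a log2 change of -0.11 and an SE of 0.28, Oas1c was above background on all arrays but too dim to be tested, and Oas1e was above it on none.

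The third question was how the members varied together from array to array. With each strain's mean removed, Pearson's r over the 6 arrays had a median of 0.397 over the 528 pairs of members, beside 0.006 over all pairs of the 10739 tested genes. It exceeded 0.5 for 42.6% of member pairs and for 22.1% of all pairs. These are descriptions with no test, since pairs share the same 6 arrays and 3 arrays of a strain leave few independent deviations. Leaving out C57B/L6 replicate 1 took the median of member pairs to 0.228, and leaving out C57B/L6 replicate 3 took it to 0.282. With any other array left out it lay between 0.427 and 0.538.

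**Figure D4:**
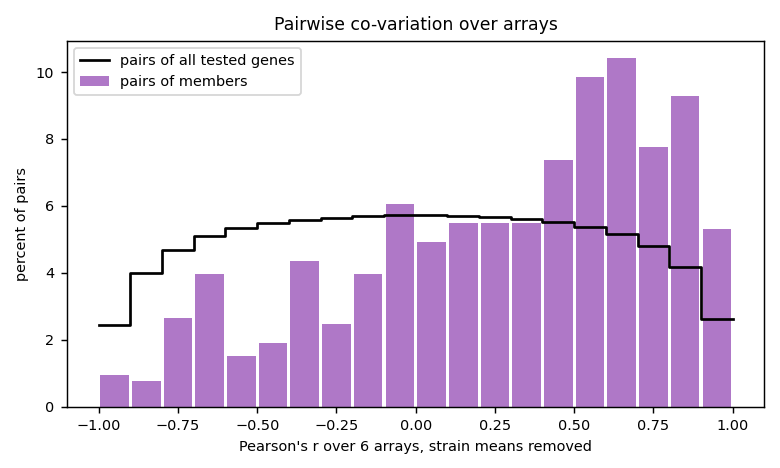
Distribution of Pearson's r over 6 arrays, after removing strain means, for the 528 pairs of members (bars) and for all pairs of 10739 tested genes (line), as percent of pairs in steps of 0.1. Member pairs lie further to the right, with 42.6% above 0.5 against 22.1% of all pairs.

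The pattern ran mainly along the C57B/L6 arrays. C57B/L6 replicate 1 was the lowest array of its strain for 23 of 33 members and for 33.7% of all tested genes, and its median deviation from the strain mean was -0.15 for the members and 0.0036 for all genes. C57B/L6 replicate 3 was the highest for 21 of 33 members and for 36.8% of all genes, with a median deviation of 0.14. In B.D(Chr5) the median deviations were smaller: replicate 2 was lowest for 16 of 33 and replicate 3 highest for 18 of 33, at -0.044 and 0.063. The typical SD within a strain was 0.20 on the log2 scale for the members and 0.15 for all tested genes (medians).

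Transcription factor, sensor, effector and guanylate-binding protein genes all had members that followed the shared pattern. The r of a member with the mean of the others has no share of all tested genes beside it and only orders the members. Irf1 tracked the mean of the other members most closely, with r = 0.99, followed by Usp18 (0.96), Trim30a (0.92), Ddx58 (0.91) and Gbp2 (0.91). Mx1 and Ifit3 had r values of 0.87 and 0.83 and the widest swings, with 2.26-fold and 1.79-fold between their highest and lowest deviations. Irf1 swung 1.33-fold and Usp18 1.41-fold. The brightest probe set of Eif2ak2 ran against the others, with r = -0.72, and was highest in C57B/L6 replicate 1, where most members were lowest. A dimmer tested probe set of Eif2ak2, at 388, 236 and 228 in C57B/L6, was also highest there. Another read 430, 468 and 471 and was lowest there, so the probe sets of this gene disagreed. Isg20, an exonuclease gene, had -0.46, Ifih1 -0.43, Irf7 -0.35 and Oasl1 -0.25. The brightest probe sets of Irf7 and Eif2ak2, the genes with the smallest p between the strains, were thus not among those that varied together. Members with a response element core in their window had a median r of 0.70 (14 genes, from -0.72 to 0.92), and those without had 0.60 (12 genes, from -0.46 to 0.99).

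**Figure D5:**
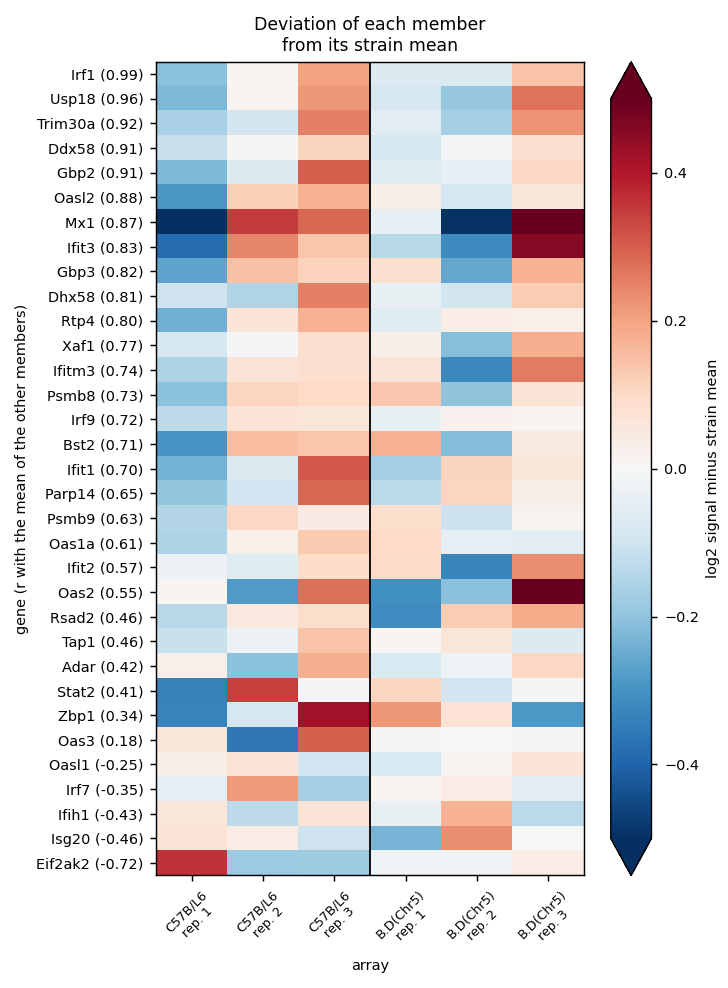
Deviation of each of 33 members from its strain mean on each array (log2 units, colours limited to 0.5 either way), ordered by r with the mean of the other members, which stands beside each name. The C57B/L6 replicate 1 column is blue for most genes down to Oas1a and red for Eif2ak2 at the bottom.

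The Oas genes did not move as a block over the arrays. The median r was 0.011 over the 10 pairs among them, 0.33 over the 140 pairs of an Oas gene with another member and 0.42 over the 378 pairs of the others. Oasl2 had an r of 0.88 with the mean of the other members, Oas1a 0.61, Oas2 0.55, Oas3 0.18 and Oasl1 -0.25. Oas2 and Oas3 swung 1.77-fold and 1.58-fold between their highest and lowest deviations, and Oasl1 swung 1.12-fold. A difference from the other members was not tested, and the median over the Oas pairs was not recomputed with an array left out.

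Marker lists of several cell types moved over the same arrays. Stem and progenitor markers had median deviations of -0.17, 0.0060 and 0.15 on C57B/L6 replicates 1, 2 and 3, beside -0.15, 0.0095 and 0.14 for the members, and 0.062, 0.077 and -0.12 in B.D(Chr5). Erythroid markers ran the other way in C57B/L6, with 0.18, 0.069 and -0.25, and neutrophil markers stood at -0.0032, 0.063 and -0.055. B cell markers had -0.18, 0.13 and 0.049. In C57B/L6 replicate 1 the median deviation was -0.27 for plasmacytoid dendritic cell markers, which include the member Bst2, -0.24 for monocyte and macrophage markers and -0.31 for T and NK cell markers. In B.D(Chr5) replicate 2 these were -0.24, -0.37 and -0.39. All 9 plasmacytoid dendritic cell markers and all 7 measured monocyte and macrophage markers lay above background on all arrays. The summed signal of the former ran from 12842 to 17276 in C57B/L6 and from 13446 to 16977 in B.D(Chr5), and that of the latter from 18290 to 22463 and from 18774 to 27263. For the T and NK markers the sums ran from 3267 to 4780 and from 2718 to 4307, with Cd4 above background on no array. Median pairwise r was 0.57, 0.78 and 0.75 in these lists. It was 0.91 for B cell, 0.86 for neutrophil, 0.25 for erythroid and 0.15 for stem and progenitor markers, beside 0.397 for the members. The part of the marker lists in the shared pattern of the members was not tested. Between the strains 0 markers of any list were called by limma. By sign, 6 of 6 B cell, 7 of 8 neutrophil, 6 of 7 monocyte and macrophage and 5 of 9 plasmacytoid dendritic cell markers were higher in B.D(Chr5). In the other direction, 5 of 5 erythroid, 6 of 8 stem and progenitor and 5 of 7 T and NK markers were lower. Their part in the values of the members was not tested. The neutrophil sum ran from 42156 to 46674 in C57B/L6 and was 50358, 51361 and 69466 on B.D(Chr5) replicates 1, 2 and 3. The B cell sum ran from 2099 to 2534 in C57B/L6 and was 3074, 2557 and 6351 on the same B.D(Chr5) arrays. In both lists B.D(Chr5) replicate 3 lay far above the other arrays. Markers of smallest p had log2 changes of 0.65 and 0.45 for Camp and Ngp of neutrophils, 0.83 and 0.82 for Igll1 and Vpreb1 of B cell precursors, and -0.80 and -0.64 for Cd3d and Thy1. Ccr9 and Tcf4 of plasmacytoid dendritic cells had -0.54 and -0.11, F13a1 and Adgre1 of monocytes and macrophages 0.33 and 0.46, Epor and Alas2 of erythroid cells -0.16 and -0.22, and Meis1 and Cd48 of stem and progenitor cells -0.41 and 0.29. F13a1 passed the threshold when B.D(Chr5) replicate 2 was left out.

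The rest of the pathway gave no call either. Of 24 genes of interferon receptors and signalling with a probe set, 21 were tested and 0 were called, 10 higher and 11 lower in B.D(Chr5), with a median log2 change of -0.0024. The DNA sensor gene Cgas had the smallest p, with signals of 1058 ± 104 and 1177 ± 59.6, followed by the interferon gamma receptor gene Ifngr1, with 3350 ± 181 and 3088 ± 186 (SD, n = 3 each). The receptor genes Ifnar1 and Ifnar2 had log2 changes of 0.033 and 0.077. Of 6 interferon ligand genes with a probe set, 0 lay above background on all 6 arrays. Ifng, the 1 that was bright enough to be tested, read 55.1, 138 and 89.7 in C57B/L6 and 87.2, 23.8 and 75.5 in B.D(Chr5). Of 37 further interferon-stimulated genes tested, 0 were called, 21 were higher and 16 lower in B.D(Chr5), with a median of 0.035. The smallest p values among them were those of Trafd1 and of Ifitm1, which read 5270 ± 736 and 4281 ± 872 (SD, n = 3 each). Median pairwise r over arrays was 0.22 for these 37 genes and 0.27 for the receptor and signalling genes.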

How the data were processed

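The authors deposited a linear signal intensity per probe set, which per the submitters' processing notes came from MAS5, version not given in the sources used here. With 2% of values trimmed from either end, every array has a mean of 500. Identical arrays were looked for, and 0 pairs were found. Of 45037 probe sets without controls, 34945 had 1 gene symbol, 932 several and 9160 none. Symbols and chromosomes came from the RefSeq annotation of GRCm38.p6 through Entrez identifiers.

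Intensities were turned into log2(signal + 16). Probe sets in the brighter 50% by mean log2 signal entered limma 3.58.1 (R 4.3.3; lmFit, eBayes with trend, two-sided) with a strain term alone. Benjamini-Hochberg adjustment ran over all 22518 tested probe sets with a threshold of 0.05. The fit was tested on simulated data. Each gene is given by its brightest tested probe set. Values on every array are given for the 5 Oas genes and the 12 other members of smallest p. Of each related list the 2 tested genes of smallest p are given. The labels give no batch. The members and lists were chosen with earlier results of these data known.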

Additional observations from a re-analysis of the deposited data

How the results depend on the processing

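In each setting in which members were tested, 0 were called; calls were not recomputed with averaged probe sets per gene, Spearman's correlation or other background levels. The smallest adjusted limma p of a member was 0.213, without C57B/L6 replicate 1. Settings were pseudocounts of 1 and 64, no filter on dim probe sets, the upper 30% of probe sets, quantile normalization, median centring, an eBayes fit with no trend, the replicate block, no _x_at probe sets, averaged probe sets per gene, Spearman's correlation, other background levels and each array left out. The count of called probe sets, 41, was 26 with the upper 30%, 25 without trend and 27 with the replicate block, and ran from 21 to 73 with an array left out, the highest without B.D(Chr5) replicate 2. With an array left out, called genes of related lists ran from 0 to 1 and the members' median log2 change from 0.038 to 0.14. In the same omissions the Oas median minus that of the others ran from -0.010 to 0.068, and the median pairwise r from 0.228 to 0.538. That Oas difference was -0.0083 with all arrays and -0.0149 with no filter. With the upper 30% it was -0.0122, but there only 25 members were tested, without Oas2, Oas3 and Oasl2. Log2 changes with an array left out ran from -0.0062 to 0.136 for Oas1a, from -0.21 to 0.201 for Oas2 (-0.095 without C57B/L6 replicate 2) and from -0.0034 to 0.084 for Oasl1; the cause was not tested. For the 17 members given in full, 245 of 249 values kept their sign and 0 passed the threshold. Under quantile normalization and centring the median r was 0.338 and 0.32, and 26 of 33 members were positive. The labels do not say whether equal replicate numbers pair the samples. Same-numbered arrays had correlations of deviations of -0.11, -0.20 and 0.20, and differently numbered arrays had values from -0.16 to 0.30. So few arrays cannot decide whether samples were paired. Under the replicate block 0 members were called. The intervals given are unadjusted, whereas calls used p adjusted over all tested probe sets. With 3 arrays per strain, even a change whose interval lay above 0, as for Irf7 and Eif2ak2, was not called. The intervals are therefore not limits of detection. Signals near background, as for Mx2 and the interferon genes, limit what can be said of these genes.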
